A study of Mus musculus with 6 samples.

Results

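Trem2, its adaptor gene Tyrobp, its relative Trem1 and other genes linked to lipid-associated macrophages were followed in immortalised mouse macrophages. The 10 genes were taken by symbol (Trem2, Tyrobp, Apoe, Gpnmb, Lgals3, Spp1, Cd9, Fabp5, Lgals1 and Trem1) from a table of 54532 genes, of which 10843 had a mean of at least 1 FPKM (fragments per kilobase of exon and per M, or mega, assigned fragments) over the libraries and were tested. All 10 were found, 9 were tested, and Trem1 was below that level. The data are 6 poly(A)-selected RNA-seq libraries, 3 of wild type (WT) and 3 that carry the label 4-1BBL knockout (KO). 4-1BBL is a TNF family ligand encoded by Tnfsf9. Cells of both groups were bone marrow-derived macrophages made immortal by retroviral v-raf and v-myc, and all cells were given IL-4 (10 ng/ml) for 24 hours. IL-4 drives alternative activation of macrophages, and with no untreated libraries analysed here, every value is a level under IL-4. The sources used here do not give the strain, sex or age of the mice or the design of the knockout allele. Whether the replicates were separate cultures or animals is not stated, so the p-values take in no more than the spread between these libraries, and that spread may be technical.

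Lipid-associated macrophages are cells that take up and store lipid from dying cells, myelin or plaques, and they appear in obese fat tissue, in atherosclerotic vessels and, as disease-associated microglia, in the brain. TREM2 is a surface receptor that binds lipids and lipoproteins. It has no signalling tail of its own and signals through the adaptor DAP12, the product of Tyrobp, whose phosphorylated motif recruits the kinase SYK. TREM1 uses the same adaptor and amplifies inflammatory responses. The other genes encode secreted, surface and cytosolic proteins that rise with TREM2 in such cells.

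The recovered depth was 20.7 to 22.3 M in WT and 19.1 to 26.4 M in KO-labelled libraries. Tnfsf9, the targeted gene, was at 14.6, 10.4 and 12.05 FPKM in WT replicates 1 to 3 and at 10.7, 10.7 and 11.4 FPKM in KO-labelled replicates 1 to 3. These values overlapped (exact two-sided permutation p = 0.4, limma adjusted p = 0.273), so the transcript does not separate the groups, and the second group is called KO-labelled here. Part of the Tnfsf9 exon length (14.9%) overlaps Gm11110 on the opposite strand. Y-linked transcripts did separate them, with Ddx3y at 10.8 ± 1.13 FPKM in KO-labelled cells (SD, n = 3) and 1 fragment in the 3 WT libraries together. Xist, the X-inactivation transcript, had no fragments in any library of either group. Whether the groups differ in the cells they came from, besides the label, was not tested, and this holds for every difference given here. Of 10 macrophage-defining genes, all tested, 4 were higher in KO-labelled libraries, 4 were lower and 2 did not pass. The shares over all tested genes were 30.6% higher and 30.2% lower at a limma adjusted p under 0.05. Cd14 fell from 292 ± 5.68 to 45.8 ± 2.64 FPKM and Csf1r from 232 ± 1.22 to 134 ± 2.95 FPKM. Cd68 fell from 426 ± 8.50 to 275 ± 17.8 FPKM and Lyz2 from 1207 ± 12.5 to 484 ± 32.8 FPKM. Lyz2 has 1 near-identical copy. Adgre1 rose from 11.8 ± 0.625 to 268 ± 6.07 FPKM. Fcgr1 rose from 8.46 ± 0.686 to 23.0 ± 1.58 FPKM and Ptprc from 8.94 ± 0.168 to 17.6 ± 1.67 FPKM. Spi1, the macrophage transcription factor PU.1, was at 135 ± 1.79 and 137 ± 7.61 FPKM, whereas Mertk, an efferocytosis receptor, had 2 fragments in the 3 WT libraries together against 4.24 ± 0.154 FPKM, the group through which alone it passed the filter. Summed over each list, markers of dendritic cells, neutrophils, fibroblasts, lymphocytes and mast cells reached at most 1.26 FPKM in any library.

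The 10 genes did not move in a single direction. Spp1, Trem2, Cd9 and Gpnmb fell in KO-labelled cells, Fabp5, Lgals1 and Apoe rose, and Tyrobp and Lgals3 did not pass the test. Of the 9 tested genes 7 (3 higher, 4 lower) passed at 0.05 in limma after Benjamini-Hochberg adjustment over the whole set tested, where 60.8% of all tested genes passed, 30.6% as higher and 30.2% as lower. After rescaling to TPM the same shares were 36.6% higher and 24.4% lower. The median log2 fold change (KO-labelled minus WT, of FPKM + 1, a scale that understates changes of low genes) was -0.06 over the 9 and 0.01 over all tested genes. The sign of the first value depends on the fit, since Tyrobp is the middle gene: it lay between -0.22 (mean of at least 5 FPKM) and 0.18 (quantile normalization) over the alternatives, with -0.02 without WT replicate 3. The groups did not overlap for 7 of the 9, against 67.4% of all tested genes. Spp1 alone among the 9 passed with a 2-fold or larger change on that scale, which 13.5% of all tested genes did. Shares of this size are near the background. RNA was taken from whole cultures, so fewer cells that express a gene and less RNA per cell cannot be told apart.

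**Figure D1:**
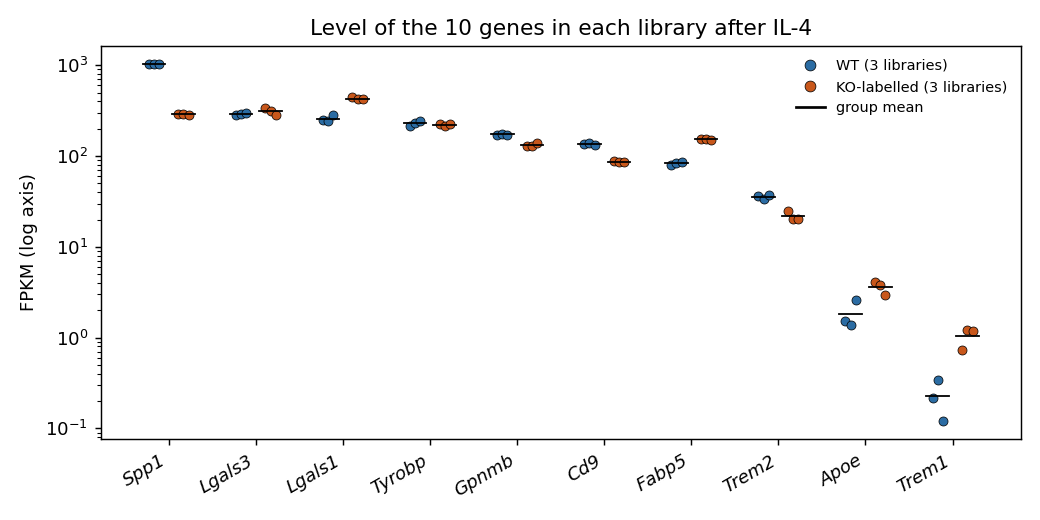
FPKM of the 10 genes in each of the 6 libraries on a log axis, ordered by the WT mean, with each library as a point and the group mean as a line. Spp1 drops from about 1028 to 287 FPKM, Tyrobp and Lgals3 overlap between the groups, and Apoe and Trem1 lie far below the other 8 genes.

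**Figure D2:**
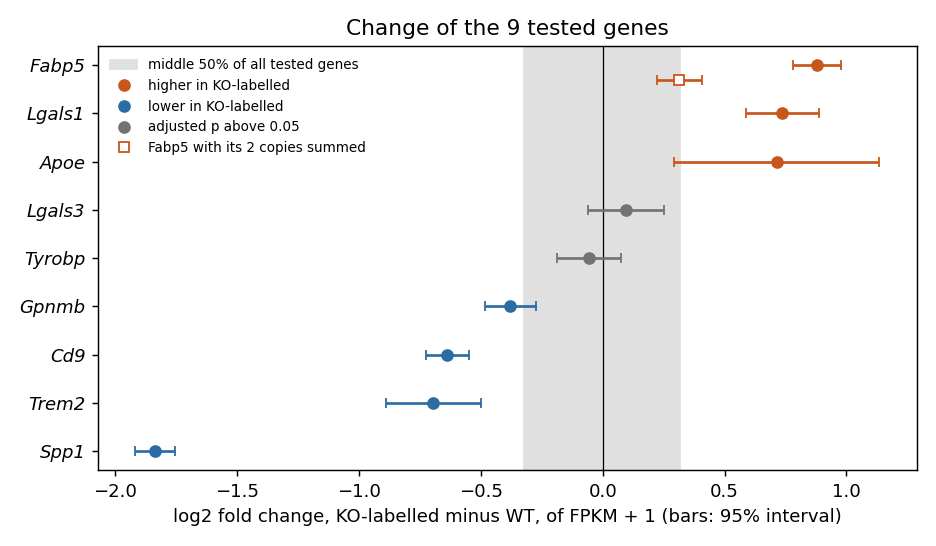
Log2 fold change of the 9 tested genes with its 95% interval, on the scale of FPKM + 1, where the grey band is the middle 50% of all 10843 tested genes (-0.32 to 0.32). The open square gives Fabp5 after its 2 near-identical copies were added, which moves it from 0.88 to 0.31.

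Trem2 (ENSMUSG00000023992, chromosome 17 at 48346401 to 48354147 in mm10, plus strand) was at 36.4, 33.8 and 37.0 FPKM in WT replicates 1 to 3 and at 24.5, 20.4 and 20.3 FPKM in KO-labelled replicates 1 to 3. Every WT library lay above every KO-labelled library. The means of 35.7 ± 1.70 and 21.7 ± 2.43 FPKM (SD, n = 3) differed 1.64-fold, with a log2 fold change of -0.70 ± 0.08 (SE) and a limma adjusted p of 0.000317. A decrease was found under all 13 alternative fits, from -0.78 to -0.62. An absolute change larger than that of Trem2 was found for 22.0% of all tested genes.

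Tyrobp (ENSMUSG00000030579, chromosome 7 at 30413760 to 30417585, plus strand), the adaptor, was at 215, 233 and 243 FPKM in WT and at 227, 213 and 223 FPKM in KO-labelled replicates. The values of the groups were interleaved. The log2 fold change was -0.06 with a 95% interval from -0.19 to 0.07 (limma adjusted p = 0.402). Its sign depends on the scaling, since it was 0.04 after rescaling to TPM (adjusted p = 0.555) and 0.18 after quantile normalization (adjusted p = 0.0111).

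The receptor therefore fell while no change in its adaptor was detected in this fit. Within a library, Trem2 was at 0.169, 0.145 and 0.152 of the FPKM of Tyrobp in WT replicates 1 to 3 and at 0.108, 0.0956 and 0.0907 in KO-labelled replicates. The log2 ratio was lower by 0.66 in KO-labelled cells, with every KO-labelled library below every WT library (exact two-sided permutation p = 0.1, the smallest that 3 against 3 libraries allow). A ratio within a library does not depend on scaling by a common factor. In other words, there were 6.46 ± 0.499 FPKM of Tyrobp per FPKM of Trem2 in WT and 10.2 ± 0.914 in KO-labelled libraries (SD, n = 3). The size of these ratios depends on the annotated exon lengths (4946 bases for Trem2 and 667 for Tyrobp). The difference of the log2 ratio between the groups does not, since the lengths are the same in all libraries.

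Trem1 (ENSMUSG00000042265, chromosome 17 at 48232768 to 48246924, plus strand), which amplifies inflammatory signals through the same adaptor, was barely expressed. It had 0.219, 0.338 and 0.120 FPKM in WT and 0.734, 1.20 and 1.19 FPKM in KO-labelled replicates, from 14, 21 and 8 fragments and from 58, 71 and 68 fragments. The groups did not overlap (exact two-sided permutation p = 0.1). In the fit without a filter on low values, over 20848 genes, Trem1 had a log2 fold change of 0.73 ± 0.13 (SE) and a limma adjusted p of 0.00613. Neutrophils also express Trem1. The 9 neutrophil markers, of which 4 were at 0 in all libraries, summed to 0.0675 to 0.141 FPKM in WT and 0.710 to 1.26 FPKM in KO-labelled cells. S100a8 had 1 fragment in WT and 33 in KO-labelled libraries, and Camp and Ltf had 0 in WT and 6 each in KO-labelled ones. Mpo and Elane went the other way, with 10 and 2 fragments in WT and 0 in KO-labelled libraries. The part of these markers in the values of Trem1 was not tested. Trem1 and Trem2 lay on opposite sides, Trem1 with the higher values in KO-labelled cells and Trem2 with the lower.

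The remaining genes of the TREM family lie in the same stretch of chromosome 17, in the order Trem1, Trem3, Treml4, Treml2, Trem2 and Treml1. Trem3, whose start is 98.6 kb upstream of that of Trem2, was the only other family member that reached the level for testing. It was at 5.86 ± 0.309 FPKM in WT cells and 4.40 ± 0.661 FPKM in KO-labelled cells (SD, n = 3), with a log2 fold change of -0.35 and a limma adjusted p of 0.0191. That call was lost after rescaling to TPM (adjusted p = 0.0568), with voom on recovered fragments (0.101), without WT replicate 2 (0.0583) and without WT replicate 3 (0.0629). Treml2, a receptor of unclear ligand, had 0.284 ± 0.128 and 1.46 ± 0.286 FPKM, Treml4 had 0.0473 ± 0.0469 and 0.575 ± 0.307 FPKM, and Treml1, known from platelets, had 0.268 ± 0.0966 and 0.427 ± 0.171 FPKM. Of the 5 family members besides Trem2, the groups overlapped only for Treml1, and they did not overlap for 67.4% of all tested genes either. Treml4 rests on few fragments, 6 in the WT libraries together and 78 in the KO-labelled ones.

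**Figure D3:**
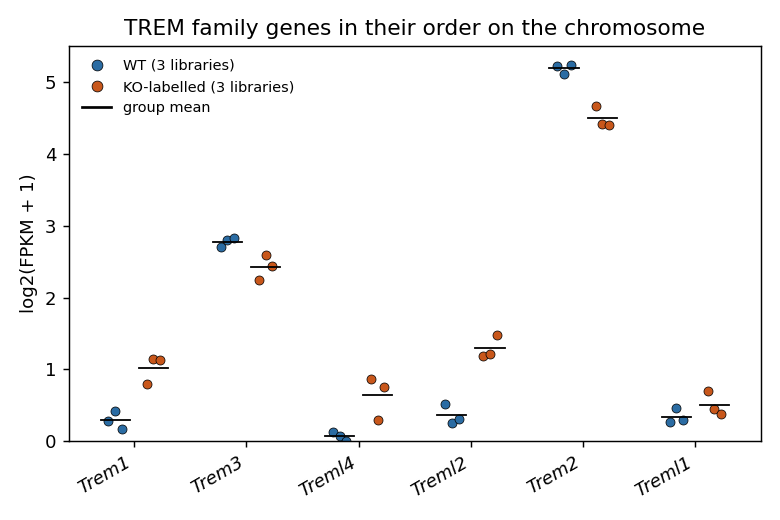
Level of the 6 TREM family genes as log2(FPKM + 1) in each library, in their order on the chromosome. Trem2 and Trem3 are lower in KO-labelled libraries, and Trem1, Treml4 and Treml2 are at low levels with higher values there.

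Other receptors that signal through Tyrobp were mostly weakly expressed. Of 12 such genes, 5 were tested, of which 1 rose, 3 fell (Trem3 among them) and 1 did not pass. Over all tested genes 30.6% rose and 30.2% fell. The median of the 5 was -0.35 on the log2 scale. Without the filter on low values 11 were tested, 5 of them higher, and the median turned to 0.37. These 5 were Sirpb1a, Sirpb1b, Sirpb1c, Pilrb1 and Pilrb2, which each have 2 or 3 near-identical copies, so their values are uncertain. Sirpb1b, Pilrb1 and Pilrb2 had no fragments in WT and low levels in KO-labelled libraries. Without KO-labelled replicate 1, 2 rose. Clec5a, a C-type lectin of myeloid cells, fell from 21.1 ± 1.91 to 4.71 ± 0.202 FPKM, and Cd300lb, an activating receptor for lipids, fell from 45.3 ± 1.02 to 16.99 ± 0.639 FPKM (limma adjusted p up to 1.18e-06 for both). Sirpb1c rose from 0.0170 ± 0.0294 to 2.50 ± 0.364 FPKM, but it has 3 near-identical copies in the annotation, its value is uncertain, and it passed the filter only through the KO-labelled group.

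Downstream of the adaptor, 17 of 32 tested signalling genes rose, 9 fell and 6 did not pass, beside 30.6% of all tested genes higher and 30.2% lower. Their median was 0.16 on the log2 scale. The kinase gene Syk rose from 11.0 ± 0.251 to 14.5 ± 0.983 FPKM, and Plcg2, the phospholipase that acts after SYK, rose from 41.8 ± 0.670 to 46.8 ± 0.262 FPKM. The largest changes were decreases. Lat2, a membrane adaptor that links SYK to its substrates, fell 103-fold from 27.4 ± 1.21 to 0.265 ± 0.175 FPKM. Dok3, an inhibitory adaptor, fell 4.66-fold from 22.1 ± 1.89 to 4.73 ± 0.446 FPKM, and Nfatc1, a calcium-driven transcription factor, fell 4.04-fold from 20.03 ± 0.546 to 4.96 ± 0.215 FPKM. These 3 decreases had limma adjusted p of at most 1.85e-06, and Lat2 passed the filter on the mean only through the WT group. Inpp5d, which encodes the inhibitory phosphatase SHIP1, did not pass, at 20.6 ± 0.609 and 21.5 ± 0.427 FPKM. Syk, Plcg2 and Inpp5d were picked with their values in view.

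TREM2 is released from the surface by ADAM proteases, and its stub is cut by gamma-secretase. Of 8 tested genes of these enzymes, 1 rose, 3 fell and 4 did not pass, beside 30.6% of all tested genes higher and 30.2% lower. Their median was -0.10 on the log2 scale. Without KO-labelled replicate 3, 2 rose. Adam10, a main sheddase, fell from 59.6 ± 1.06 to 49.0 ± 2.05 FPKM. Among gamma-secretase subunits Aph1a fell from 40.6 ± 0.180 to 29.4 ± 2.79 FPKM and Psen2 rose from 5.71 ± 0.240 to 11.3 ± 0.474 FPKM. Aph1a has 1 near-identical copy. The limma adjusted p was at most 0.00154 for these 3 genes.

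Spp1 (ENSMUSG00000029304, chromosome 5 at 104435118 to 104441050, plus strand) encodes osteopontin, a secreted matrix and cytokine-like protein, and had the largest change of the 9 tested genes. It was at 1038, 1021 and 1025 FPKM in WT and at 292, 288 and 282 FPKM in KO-labelled replicates. The libraries of a group lay close together and the groups far apart. Spp1 was 3.58-fold lower, with a log2 fold change of -1.84 ± 0.03 (SE) and a limma adjusted p of 4.29e-08. It was the gene of rank 25 by mean FPKM among the 10843 tested genes in WT and of rank 125 in KO-labelled libraries. Part of its exon length (18.8%) overlaps Gm42793 on the same strand, which did not exceed 0.655 FPKM in any library.

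The receptors of osteopontin were split. Of 6 tested receptor genes, 3 rose and 3 fell, where 30.6% of all tested genes rose and 30.2% fell. Their median was 0.01 on the log2 scale. Itga4, an integrin chain of leukocyte adhesion, fell 3.89-fold from 75.6 ± 1.52 to 19.4 ± 0.798 FPKM. Itgb1, its partner chain, rose 2.66-fold from 43.9 ± 1.58 to 116 ± 3.07 FPKM, and Itgb5, a vitronectin receptor chain with 1 near-identical copy, rose 2.45-fold from 11.3 ± 0.335 to 27.6 ± 1.64 FPKM. All 3 had limma adjusted p of at most 3.18e-06. Osteoclasts also express Spp1 and Gpnmb. Of 8 osteoclast markers 5 were tested, of which 4 were lower and 1 was higher, and the summed level of the 8 was 138 to 147 FPKM in WT and 82.6 to 86.3 FPKM in KO-labelled libraries. Ctsk, the cathepsin K gene, held most of the KO-labelled sum and rose from 69.5 ± 4.79 to 80.5 ± 1.89 FPKM. The other tested markers fell: Acp5 from 50.8 ± 0.745 to 2.79 ± 0.260 FPKM, Atp6v0d2, a proton pump subunit gene, from 9.40 ± 0.819 to 0.460 ± 0.266 FPKM, Dcstamp, a cell fusion gene, from 6.75 ± 0.814 to 0.0901 ± 0.156 FPKM and Mmp9, a gelatinase gene, from 4.60 ± 0.383 to 0.524 ± 0.212 FPKM. Atp6v0d2, Dcstamp and Mmp9 passed the filter only through the WT group. Of the 3 not tested, Calcr, the calcitonin receptor gene, had 2 fragments in the 3 WT libraries together and 0 in the KO-labelled ones. The part of these markers in the changes of Spp1 and Gpnmb was not tested.

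Gpnmb (ENSMUSG00000029816, chromosome 6 at 49036546 to 49070929, plus strand), a lysosomal and surface glycoprotein gene, was at 173, 174 and 172 FPKM in WT and at 129, 129 and 140 FPKM in KO-labelled replicates. The groups did not overlap, and the difference was small next to that of Spp1. The means differed 1.30-fold, with a log2 fold change of -0.38 ± 0.04 (SE) and a limma adjusted p of 0.000291. After quantile normalization the log2 fold change was -0.19 (adjusted p = 0.0146), the smallest decrease over 13 alternative fits, and the largest was -0.42.

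Cd9 (ENSMUSG00000030342, chromosome 6 at 125460266 to 125494791, minus strand) encodes a tetraspanin, a membrane organiser found on exosomes and used to sort lipid-associated macrophages. It was at 136, 138 and 132 FPKM in WT and at 87.2, 85.1 and 86.7 FPKM in KO-labelled replicates. Again all WT libraries lay above all KO-labelled ones, with a 1.56-fold difference of means, a log2 fold change of -0.64 ± 0.04 (SE) and a limma adjusted p of 8.63e-06. Of 15 other tested genes of the tetraspanin list, which includes the Cd9 partners Ptgfrn and Igsf8, 4 rose, 8 fell and 3 did not pass. Their median was -0.23 on the log2 scale, and 30.6% of all tested genes rose and 30.2% fell. Cd63, a tetraspanin of late endosomes with 1 near-identical copy, fell from 57.0 ± 0.565 to 28.0 ± 1.96 FPKM. Cd37, a tetraspanin of leukocytes, fell from 18.0 ± 1.24 to 8.98 ± 0.535 FPKM. Tspan32 had no fragments in the WT group and 4.30 ± 0.388 FPKM in the KO-labelled group, which is at least 192-fold higher against a floor of 3 fragments per library, a limit that covers counting error only. The limma adjusted p was at most 3.03e-05 for these 3 genes, and Tspan32 passed the filter on the mean only through the KO-labelled group.

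The 250 bases before the RefSeq start of Trem2, Spp1 and Gpnmb (GRCm38.p6) are printed to show whether genes that fell share short motifs near the start. Capitals mark matches to the motifs searched on both strands, which were TGANTCA of AP-1, TCATGTG of MITF and TFE factors, GTCACGTG of lysosomal genes, GAGGAAGT of PU.1, TTC and GAA with 4 bases between them, of STAT6 and TATAAA of the TATA box. All 3 are written 5′ to 3′ on the strand of the gene.
Trem2, chr17:48346151-48346400, plus strand: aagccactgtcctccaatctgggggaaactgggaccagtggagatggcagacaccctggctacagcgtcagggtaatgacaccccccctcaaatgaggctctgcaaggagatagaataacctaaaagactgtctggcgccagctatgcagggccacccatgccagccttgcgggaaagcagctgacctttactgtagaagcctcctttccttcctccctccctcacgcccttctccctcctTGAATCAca
Spp1, chr5:104434861-104435110, plus strand, the first of 2 starts: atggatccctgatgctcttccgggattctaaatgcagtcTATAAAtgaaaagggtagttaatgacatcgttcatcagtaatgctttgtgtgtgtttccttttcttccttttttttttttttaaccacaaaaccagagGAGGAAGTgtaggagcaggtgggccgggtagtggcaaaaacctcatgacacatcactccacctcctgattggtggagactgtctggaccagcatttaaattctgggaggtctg
Gpnmb, chr6:49036268-49036517, plus strand: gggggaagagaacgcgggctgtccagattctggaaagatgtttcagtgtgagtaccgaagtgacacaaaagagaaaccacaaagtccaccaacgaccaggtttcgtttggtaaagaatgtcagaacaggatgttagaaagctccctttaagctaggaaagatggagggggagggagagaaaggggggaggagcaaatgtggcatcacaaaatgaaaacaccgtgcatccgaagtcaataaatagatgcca

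No motif was shared between these 3 windows. The windows of Cd9 and Lgals3 were searched but are not printed because they reach into exons of the GENCODE annotation. Trem2 held 1 AP-1 motif (TGAATCA), which 6.75% of all 32851 windows of this length in the table held. Spp1 held 1 PU.1 motif, found in 2.44% of windows, and 1 TATA motif, found in 12.4% and also in the window of the second of 3 Apoe starts. Lgals3 held 2 STAT6 motifs (TTCTGCGGAA and TTCAGGTGAA), where 5.85% of windows held at least 1. Gpnmb and Cd9 held none of the 6, and the MITF and lysosomal motifs were in no window of any member, against 3.25% and 1.85% of all windows. A match is a string of letters and not a measured binding site. Windows for 7 of the 10 genes were in the table.

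Apoe (ENSMUSG00000002985, chromosome 7 at 19696109 to 19699188, minus strand) encodes apolipoprotein E, a lipid carrier that macrophages secrete and that TREM2 binds. It was at 1.53, 1.38 and 2.60 FPKM in WT and at 4.06, 3.78 and 2.96 FPKM in KO-labelled replicates, from 255 and 509 fragments per group. WT replicate 3 and KO-labelled replicate 3 lay nearest each other, without overlap. The means differed 1.96-fold, with a log2 fold change of 0.71 ± 0.18 (SE) and a limma adjusted p of 0.0112, and the adjusted p lay between 0.00229 and 0.0426 over all fits that tested it. By mean FPKM it ranked 9490 of 10843 tested genes in WT and 8102 in KO-labelled libraries.

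Genes that act with Apoe moved both ways. Of 8 tested neighbours, receptors and lipid exporters, 2 rose, 4 fell and 2 did not pass, where 30.6% of all tested genes rose and 30.2% fell. Their median was -0.16 on the log2 scale. Without the filter on low values, over 11 genes, the median turned to 0.02. A single gene rose when WT replicate 1, 2 or 3 or KO-labelled replicate 1 was left out. Abca1, which loads lipid onto apolipoproteins, rose 8.01-fold from 0.691 ± 0.0879 to 5.54 ± 0.831 FPKM. Lrp8, a receptor of apolipoprotein E, fell 2.85-fold from 8.11 ± 0.527 to 2.84 ± 0.174 FPKM, and Pltp, a phospholipid transfer protein gene, fell 31.1-fold from 3.62 ± 0.0968 to 0.116 ± 0.0938 FPKM. The limma adjusted p was at most 8.31e-06 for these 3 genes. Abca1 passed the filter on the mean only through the KO-labelled group and Pltp only through the WT group.

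Fabp5 (ENSMUSG00000027533, chromosome 3 at 10012548 to 10016607, plus strand) encodes a cytosolic fatty acid binding protein. It was at 80.1, 83.1 and 85.3 FPKM in WT and at 155, 155 and 150 FPKM in KO-labelled replicates. The groups were well apart, 1.85-fold higher in KO-labelled cells, with a log2 fold change of 0.88 ± 0.04 (SE) and a limma adjusted p of 2.99e-06. That size was smaller once fragments on 2 processed pseudogenes that resemble its transcript were added.

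The pseudogene Gm6166 aligned to the Fabp5 transcript with 98.3% identity over 409 bases and Gm14328 with 97.3% over 408 bases. Gm6166 was at 308, 331 and 305 FPKM in WT and at 10.3, 5.09 and 5.88 FPKM in KO-labelled replicates, a change opposite to that of Fabp5. Gm14328 was at 43.4 ± 4.07 and 1.08 ± 0.739 FPKM (SD, n = 3). Of all fragments on the 3 genes, 66.6%, 66.2% and 67.8% lay on Fabp5 in WT and 99.2%, 99.6% and 99.4% in KO-labelled replicates.

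Summed over the 3 genes, there were 429, 448 and 449 fragments per M in WT and 556, 556 and 537 in KO-labelled replicates, without overlap. The fold fell from 1.85 for Fabp5 alone to 1.24 for the sum. Put on the exon length of Fabp5, the sum had a log2 fold change of 0.31 ± 0.04 (SE) and a limma adjusted p of 0.000415 in the same fit. This sum was added after the data had been seen. Whether the fragments on the pseudogenes came from Fabp5 transcripts was not tested.

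**Figure D4:**
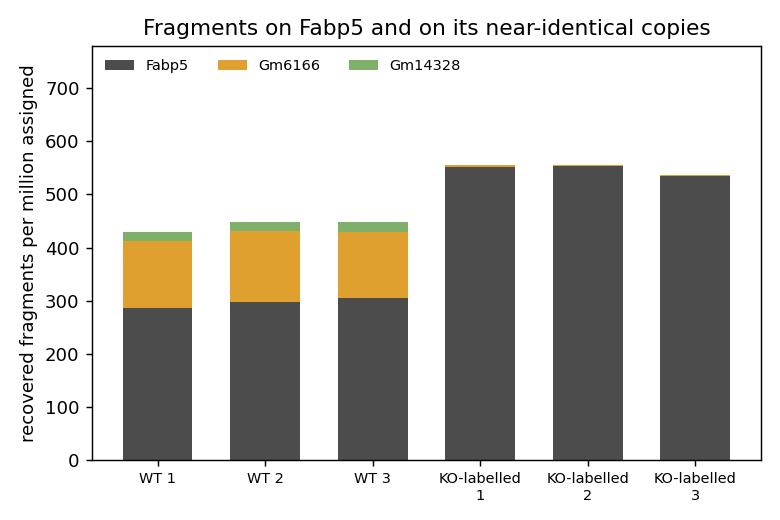
Recovered fragments per M assigned fragments on Fabp5 and on the pseudogenes Gm6166 and Gm14328, stacked for each library. The pseudogenes hold a visible upper portion of each WT bar and almost none of each KO-labelled bar, so the summed bars differ less (442 ± 11.4 against 550 ± 10.8, SD, n = 3) than the Fabp5 portions.

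Of the other fatty acid binding protein genes, the 3 that were tested all rose, out of 9 in the list. Among all tested genes 30.6% rose. The median of the 3 was 2.51 on the log2 scale. Fabp4, the adipocyte and macrophage form, rose 8.28-fold from 3.16 ± 0.179 to 26.2 ± 5.69 FPKM. Fabp7, the brain form, rose 23.0-fold from 0.272 ± 0.111 to 6.27 ± 0.697 FPKM, and Fabp3, the heart form with 1 near-identical copy, rose 5.64-fold from 1.78 ± 0.533 to 10.02 ± 1.48 FPKM. All 3 had limma adjusted p of at most 3.52e-05. Fabp7 passed the filter on the mean only through its level in KO-labelled libraries. Of the 6 not tested, 4 were at 0 in all 6 libraries.

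The galectins, which bind beta-galactosides on glycoproteins, did not move together. Lgals1 (ENSMUSG00000068220, chromosome 15 at 78926725 to 78930465, plus strand) was at 250, 241 and 281 FPKM in WT and at 443, 421 and 421 FPKM in KO-labelled replicates. All KO-labelled libraries were above all WT libraries, 1.67-fold by the means, with a log2 fold change of 0.74 ± 0.06 (SE) and a limma adjusted p of 6.02e-05. Lgals1 was the gene of rank 170 by mean FPKM in WT and 73 in KO-labelled libraries.

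Lgals3 (ENSMUSG00000050335, chromosome 14 at 47367751 to 47386160, plus strand), a galectin of phagocytes that is recruited to damaged lysosomes, was at 283, 287 and 300 FPKM in WT and at 334, 314 and 283 FPKM in KO-labelled replicates. KO-labelled replicate 3 lay just under the lowest WT value, so the groups overlapped. The log2 fold change was 0.09 with a 95% interval from -0.06 to 0.25 (limma adjusted p = 0.250). It passed without KO-labelled replicate 3 (0.16, adjusted p = 0.0192), after rescaling to TPM (0.19, adjusted p = 0.0254) and after quantile normalization (0.27, adjusted p = 0.00492), with adjusted p between 0.00492 and 0.591 over all fits. Of 4 tested genes among the other galectins and their binding protein, 1 rose, 1 fell and 2 did not pass. Their median was 0.07 on the log2 scale, and 30.6% of all tested genes rose and 30.2% fell. Without WT replicate 3 or KO-labelled replicate 1, 2 rose. Lgals3bp, a secreted partner of galectin-3, rose from 41.8 ± 2.08 to 59.5 ± 4.07 FPKM, and Lgalsl fell from 6.63 ± 1.05 to 3.90 ± 0.621 FPKM (limma adjusted p up to 0.00483).

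The wider signature of lipid-associated macrophages and disease-associated microglia was split as well. Of 35 tested genes, 20 rose, 13 fell and 2 did not pass, and their median was 0.23 on the log2 scale, where 60.8% of all tested genes passed in either direction. Fabp4, Cd63 and Abca1 belong to this list as well as to those above. Igf1, a growth factor gene, rose 44.3-fold from 2.13 ± 0.240 to 94.2 ± 4.12 FPKM, and Timp2, a metalloprotease inhibitor gene, rose 33.8-fold from 0.982 ± 0.373 to 33.2 ± 1.48 FPKM. Acp5, the tartrate-resistant acid phosphatase gene of osteoclasts, fell 18.2-fold from 50.8 ± 0.745 to 2.79 ± 0.260 FPKM. For these 3 genes limma gave adjusted p of at most 5.98e-07, and Timp2 passed the filter on the mean only through the KO-labelled group. Among genes of lipid storage and uptake, named after their values were seen, Lpl, the lipoprotein lipase gene, rose from 52.8 ± 1.25 to 101 ± 3.86 FPKM, Cd36, a fatty acid translocase gene, rose from 7.24 ± 0.113 to 55.2 ± 4.00 FPKM, and Plin2, a lipid droplet coat gene, rose from 26.5 ± 1.07 to 58.0 ± 2.07 FPKM. Lipa, the lysosomal acid lipase gene, fell from 159 ± 1.29 to 91.8 ± 4.74 FPKM.

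Microglial signature genes also parted, again named after their values were seen. Clec7a, the beta-glucan receptor gene, rose from 0.873 ± 0.303 to 23.8 ± 0.427 FPKM, whereas Axl, a receptor for dying cells, fell from 5.33 ± 0.166 to 0.0275 ± 0.0318 FPKM and Cst7, a cystatin gene, fell from 12.1 ± 2.79 to 1.87 ± 0.595 FPKM. For these 3 limma gave adjusted p of at most 6.73e-05. Clec7a passed the filter on the mean only through the KO-labelled group and Axl only through the WT group.

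**Figure D5:**
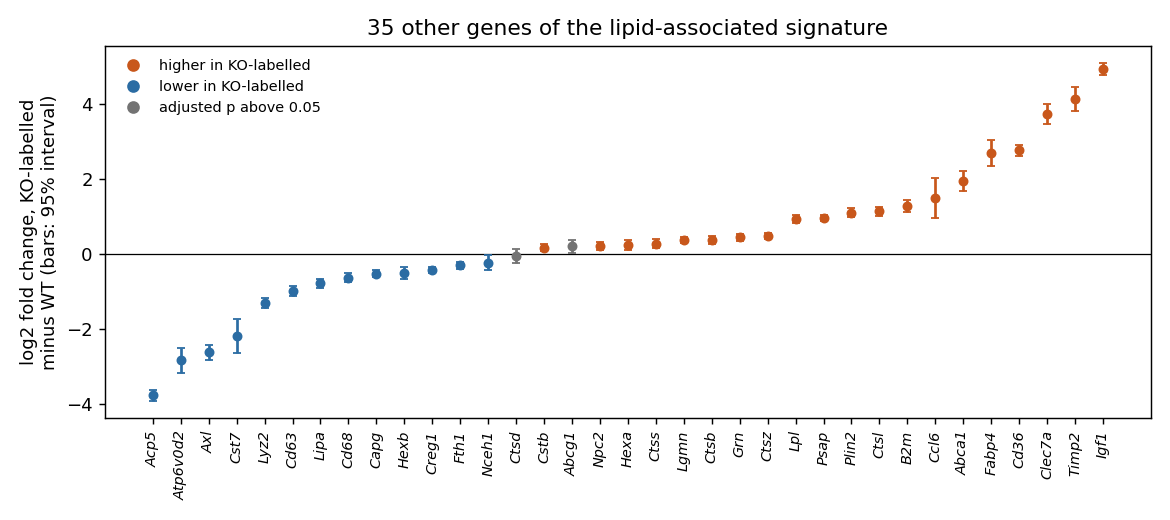
Log2 fold change of the 35 tested genes of the wider signature with its 95% interval, on the scale of FPKM + 1, sorted from lowest to highest. The 20 genes that rose reach 4.93 (Igf1) and the 13 that fell reach -3.77 (Acp5), with 2 that did not pass.

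Among transcription factors known to act on these genes, 15 were tested, of which 7 rose, 1 fell and 7 did not pass. Over all tested genes 30.6% rose and 30.2% fell. The median of the 15 was 0.21 on the log2 scale. Without KO-labelled replicate 1 the median was 0.00055. Pparg, a lipid-sensing nuclear receptor, had no fragments in the WT group and 12.6 ± 0.681 FPKM in the KO-labelled group, which is at least 266-fold higher. Tfec, an MITF family factor of macrophages, had none against 4.54 ± 0.572 FPKM, at least 181-fold higher. Bhlhe41 fell 6.99-fold from 6.19 ± 0.287 to 0.885 ± 0.174 FPKM, with limma adjusted p up to 3.53e-06 for the 3. Pparg and Tfec passed the filter on the mean only through the KO-labelled group and Bhlhe41 only through the WT group. Mitf, which acts on Gpnmb, was at 7.24 ± 0.945 and 7.04 ± 0.464 FPKM, and Nr1h3, the LXR alpha gene that acts on Apoe and Abca1, rose from 4.81 ± 0.490 to 10.9 ± 0.829 FPKM. Nr1h2, the LXR beta gene, did not pass, at 15.5 ± 0.600 and 15.6 ± 1.52 FPKM. Mitf, Nr1h3 and Nr1h2 were named after their values were seen, and the part of these factors in the changes of other genes was not tested.

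FPKM is per exon length, and that length covers all annotated exons of a gene together (4946 bases for Trem2, 3567 for Fabp5 and 667 for Tyrobp). Where the expressed transcript is shorter, the level is understated, so an order of genes by FPKM also depends on the annotation. By FPKM, the order in WT was Spp1, Lgals3, Lgals1, Tyrobp, Gpnmb, Cd9, Fabp5, Trem2, Apoe and Trem1. Only Lgals1 and Tyrobp had overlapping ranges among neighbours in that order. In KO-labelled libraries it was Lgals1, Lgals3, Spp1, Tyrobp, Fabp5, Gpnmb, Cd9, Trem2, Apoe and Trem1, with overlapping ranges only for Lgals3 and Spp1. Spp1 went from the first place to the third, and Fabp5 passed Gpnmb and Cd9. Trem2, Apoe and Trem1 held the last 3 places in both groups.

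The genes whose levels were nearest to those of Trem2 over the 6 libraries, by Euclidean distance of log2(FPKM + 1) among tested protein-coding genes outside the 10, were Zw10 (0.24), Sipa1 (0.28) and Wdr3 (0.28). Zw10, a kinetochore gene, was at 37.4 ± 1.01 and 21.4 ± 1.47 FPKM, Sipa1, a Rap GTPase regulator, at 36.2 ± 2.45 and 21.5 ± 2.26 FPKM, and Wdr3 at 35.8 ± 1.32 and 23.3 ± 0.340 FPKM. With 2 groups of 3 libraries, nearness in this measure reflects a like level and a like difference between the groups only.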

How the data were processed

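Poly(A)-selected RNA of 3 WT and 3 KO-labelled libraries was sequenced, and the authors deposited FPKM for each Ensembl gene, made with HISAT2 2.0.5 and featureCounts 1.5.0-p3 on mm10, per the submitters' processing notes. For the annotation, the strand setting and reads with several matches, no statement was found: not given in the sources used here. GENCODE M21 on the same build matched 54495 of 54532 identifiers. Multiplying FPKM by exon length gave whole fragments within 0.1 for 97.9% to 98.0% of values up to 200 fragments in each library (20% by chance), which gave the depths, and no 2 libraries shared a value above 0 at any gene.

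limma 3.58.1 in R 4.3.3 tested log2(FPKM + 1) over all 6 libraries, using a mean-variance trend, for genes averaging 1 FPKM or more, followed by Benjamini-Hochberg adjustment. The step was checked on simulated data in which only a small part of the genes was changed. That setting differs from these data, where most tested genes were called, so the check does not cover it. Single values used exact two-sided permutation tests over libraries, which cannot go below 0.1. Near-identical copies were found with BLAST+ 2.17.0+ (minimum 95% identity, 80% of the shorter transcript aligned, 150 bases aligned). The alternatives were another pseudocount, other filters, TPM, quantile normalization, voom, a replicate block and leaving out each library.

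The members and the 11 gene lists were chosen with earlier results of these data known. Named genes are the 10 members, Tnfsf9, macrophage-defining genes, the 3 called genes with the largest change in each list and the 3 genes nearest to Trem2. All others, among them Ddx3y, Treml1, Treml2, Treml4 and the osteoclast markers, were chosen with their values known. Treml6 and Lgals6 had no identifier in the annotation used. Fragments carry no molecular identifiers.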

Additional observations from a re-analysis of the deposited data

How the results depend on the processing

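All 7 calls among the members kept their direction and stayed under an adjusted p of 0.05 in every fit that tested the gene, and Apoe was not tested with a mean of at least 5 FPKM. Quantile normalization raised the number of members higher from 3 to 5 by adding Lgals3 and Tyrobp. Tyrobp was the member whose sign turned, with a log2 fold change of 0.037 after rescaling to TPM (its log2 ratio of mean levels was 0.036) and 0.18 after quantile normalization. The macrophage genes Itgam and Spi1, which had not passed, also turned sign without a library: over the fits without 1 library, Itgam lay between -0.010 and 0.23, the lowest without KO-labelled replicate 3, and Spi1 between -0.025 and 0.051, the lowest without KO-labelled replicate 1. Spi1 passed as higher after quantile normalization (0.18, adjusted p = 0.0166). The cause was not tested. Counts of calls in short lists moved by over 1.5 times in some fits: without the filter, Tyrobp receptors higher went from 1 to 5 and osteopontin receptors higher from 3 to 5, TREM family members higher from 0 to 2 and galectins higher from 1 to 2, because more genes were tested. The 5 Tyrobp receptor genes higher without the filter all have near-identical copies. After rescaling to TPM, sheddase genes, Tyrobp receptors and galectins higher each went from 1 to 2. With voom, sheddase genes higher went from 1 to 2. With a mean of at least 5 FPKM, which tested fewer genes, Tyrobp receptors higher went from 1 to 0, tetraspanins higher from 4 to 2 and regulators lower from 1 to 0.

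Same-numbered libraries did not deviate together across genes (r = -0.034, 0.047 and -0.032), so the values gave no sign that the numbers pair the samples. Whether same-numbered libraries were cultured or prepared together cannot be told from these correlations. With the replicate block, 3119 genes were higher and 3075 lower, against 3321 and 3273 without it, and 3 members were higher and 4 lower, as without it. Among the lists, the block moved sheddase genes and galectins higher from 1 to 2 and Apoe partners higher from 2 to 1. Leaving out 1 library at a time gave 2955 to 3218 genes higher. Low counts limit Trem1, with 43 fragments in the 3 WT libraries together.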

Other observations

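Some signature genes lay below the level for testing in these cells. Itgax, the CD11c gene often used to mark lipid-associated macrophages, was at 0.338 ± 0.128 FPKM (WT) and 0.288 ± 0.0450 FPKM (KO-labelled, SD, n = 3), and the groups overlapped. Csf1, a macrophage growth factor gene, had 0.0611 ± 0.0293 and 0.485 ± 0.129 FPKM, from 21 and 171 fragments. Mmp12, the macrophage elastase gene, had 0.0126 ± 0.0124 and 0.144 ± 0.0179 FPKM, from 6 and 67 fragments. Apoc1, the apolipoprotein gene next to Apoe, had 0.101 ± 0.174 and 1.59 ± 0.639 FPKM, from 5 and 75 fragments. For Csf1, Mmp12 and Apoc1 every KO-labelled library lay above every WT library, as did those of Apoe. Among all tested genes the groups did not overlap for 67.4%, in either direction. Ptgfrn, a partner of Cd9, had no fragments in WT and 1.76 ± 0.201 FPKM in the other group, which is at least 131-fold higher. These genes were named after their values were seen.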
